A study of Mus musculus with 12 samples.

Results

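The genes described here are 34 that act in the handling of glucose, fructose and glycogen in the liver, from sugar uptake through glycolysis, gluconeogenesis and glycogen turnover to the entry of pyruvate into the mitochondria. They were taken by gene symbol from a fixed list of names, and all 34 were found among the 50559 genes of the deposited count tables. By role, 6 act in sugar entry (Slc2a1, Slc2a2, Hk1, Hk2, Gckr, Khk), 13 in glycolysis, 6 in gluconeogenesis (Pck1, Pck2, Pcx, Fbp1, Slc37a4, Ppargc1a), 6 in glycogen turnover (Gys2, Pygl, Gbe1, Ugp2, Ppp1r3b, Ppp1r3c) and 3 at pyruvate dehydrogenase (Pdha1, Pdk1, Pdk2). The 13 of glycolysis are Gpi1, Pfkl, Pfkm, Pfkfb1, Pfkfb3, Aldoa, Tpi1, Gapdh, Pgk1, Pgam1, Eno1, Pkm and Ldha.

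Liver RNA of C57BL/6N mice was sequenced in 12 libraries, 3 for each of 4 groups. One group was on a normal chow diet (NCD) and the other 3 were on a high-fat diet (HFD), with 60% of the energy from fat, for 12 weeks. Of the high-fat groups, HFD received no compound named in the labels, HFD+C1 received compound C1 and HFD+C2 received compound C2, each at 5 mg/kg per day into the peritoneum for 12 weeks. The series title calls C1 and C2 inhibitors of CYP4A, the fatty acid hydroxylases of the cytochrome P450 family. Whether the control groups were injected with a vehicle, and the animals' age and sex, are not given in the sources used here. The labels number the libraries as biological replicates without saying more, so each p-value below measures the spread between these libraries.

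Hepatocytes take up glucose through the transporter GLUT2, trap it as glucose 6-phosphate, and either store it as glycogen, burn it through glycolysis or send it to lipid synthesis. In fasting the flow reverses: glycogen is broken down, and lactate, glycerol and amino acids are rebuilt into glucose, with pyruvate carboxylase, PEPCK and fructose bisphosphatase as the committed steps. Insulin and glucagon set the balance between these directions, and a long high-fat diet is widely used to disturb it in mice.

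Under the high-fat diet 4 of the 34 genes rose and 2 fell, with an adjusted p under 0.05 in the quasi-likelihood test of edgeR. Those that rose were Slc2a2 (GLUT2), Pcx (pyruvate carboxylase), Ugp2 and Gbe1 (a pair of enzymes that build glycogen). Those that fell were Ppp1r3c, a subunit that brings protein phosphatase 1 to glycogen, and Pgk1, phosphoglycerate kinase of glycolysis. The 6 are 17.6% of the 34 genes, where 6.03% of the 13864 genes tested were called, 2.59% higher and 3.44% lower. Neither compound gave a call in any of the 34 genes.

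Of the 6 called genes, 4 had a start-site window that held one of the short motifs searched, and these windows are printed because these genes passed the test under the diet. Each window spans 250 bases before to 50 after the start of transcription, from RefSeq on GRCm38.p6, is read 5′ to 3′ along the gene's strand, and is in lower case with each ACGTG in capitals, on either strand (CACGT is its other strand). The Ppp1r3c window lies at chr19:36736555-36736854 on the minus strand, that of Pcx at chr19:4510222-4510521 on the plus strand, that of Pgk1 at chrX:106186850-106187149 on the plus strand and that of Ugp2 at chr11:21371218-21371517 on the minus strand.
Ppp1r3c: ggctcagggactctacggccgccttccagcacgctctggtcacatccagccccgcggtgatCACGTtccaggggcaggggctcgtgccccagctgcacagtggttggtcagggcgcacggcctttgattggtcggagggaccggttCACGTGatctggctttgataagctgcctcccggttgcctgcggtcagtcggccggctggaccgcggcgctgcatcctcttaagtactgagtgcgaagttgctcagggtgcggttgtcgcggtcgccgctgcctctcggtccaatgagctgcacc
Pcx: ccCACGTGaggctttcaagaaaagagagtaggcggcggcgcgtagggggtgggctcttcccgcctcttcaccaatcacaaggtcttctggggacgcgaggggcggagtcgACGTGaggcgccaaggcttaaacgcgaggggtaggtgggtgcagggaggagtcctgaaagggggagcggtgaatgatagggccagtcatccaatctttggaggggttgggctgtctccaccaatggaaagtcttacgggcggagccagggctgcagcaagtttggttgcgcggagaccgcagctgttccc
Pgk1: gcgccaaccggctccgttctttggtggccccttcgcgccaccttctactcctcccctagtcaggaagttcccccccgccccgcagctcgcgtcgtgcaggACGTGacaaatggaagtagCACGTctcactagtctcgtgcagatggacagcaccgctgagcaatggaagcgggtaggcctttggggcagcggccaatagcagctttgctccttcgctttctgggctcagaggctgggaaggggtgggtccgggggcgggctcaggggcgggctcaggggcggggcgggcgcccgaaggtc
Ugp2: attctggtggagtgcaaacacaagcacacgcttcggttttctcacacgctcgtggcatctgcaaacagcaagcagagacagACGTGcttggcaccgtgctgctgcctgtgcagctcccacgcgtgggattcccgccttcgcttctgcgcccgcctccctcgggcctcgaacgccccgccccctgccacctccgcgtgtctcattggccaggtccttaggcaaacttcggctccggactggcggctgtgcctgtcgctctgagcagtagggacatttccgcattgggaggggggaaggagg
ACGTG is the core of the hypoxia response element, and CACGTG, which contains it on both strands, is the E-box bound by many helix-loop-helix factors. The E-box stood once in the Ppp1r3c and Pcx windows, and in 7 of the 32 genes with a window (Khk, Ldha, Pcx, Pdk2, Pfkfb3, Pfkm and Ppp1r3c). It was in 13.5% of the 52 windows of these genes and in 7.15% of all 32851 windows of the table. ACGTG was in windows of 18 of the 32 genes. It was in 21 of the 52 windows, or 40.4%, against 19.6% of all windows. TATAAA was in 5.77% of the 52 windows against 13.6% of all, and TGACGTCA, the cyclic AMP response element, was in the Ldha window among these genes and in 1.79% of all windows. The windows of Slc2a2 and Gbe1 and the other windows of Pcx and Ugp2 held none of these letters. Gys2 and Ppp1r3b were not matched to a window, and a match of letters is a description of the sequence only.

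All libraries held the 8 hepatocyte markers, with summed levels of 81266 to 154281 CPM (counts scaled to the size of the library) in the 9 high-fat libraries and 29350, 75473 and 78413 CPM in NCD replicates 1 to 3. In bulk RNA, fewer cells of a type and less RNA per cell cannot be told apart. Between 4281210 and 32124248 reads per library were counted in genes, so that 3 reads, taken as the floor, equal 0.0997 to 0.633 CPM on the scale printed here, for counting error only. A pair of libraries stood apart: NCD replicate 1 left 58.2% of its reads without a gene, and its correlations with the other NCD libraries over 8472 genes were 0.912 and 0.939 against 0.978 between those; HFD+C2 replicate 1 left 47.1% and gave 0.949 and 0.947 against 0.987. Of the 34 genes, 5 in NCD replicate 1 and 3 in NCD replicate 2 lay more than 1 log2 unit from the mean of the other libraries of their group, as did 1 in HFD+C1 replicate 2 and 1 (Pdk2) in the first HFD+C2 library, and 0 in the other 8 libraries. The 4 adipocyte markers summed to 2.30 to 5.48 CPM in NCD, where Adipoq had no read, and to 32.5 to 73.3 CPM in HFD, where Lep had none. They summed to 6.96 to 37.8 CPM in HFD+C1 and 10.9 to 45.5 CPM in HFD+C2. Only 1 of these 4 adipocyte markers had enough reads to be tested for the diet, and it was called. Whether the higher sums in HFD reflect more adipocytes was not tested. The 5 muscle markers summed to 97.3 CPM in NCD replicate 3 and to at most 1.19 CPM in each of the other 11 libraries. The cholangiocyte markers summed to 23.6 to 32.1 CPM in NCD and 33.0 to 39.8 CPM in HFD, and the stellate markers, of which 2 of 6 were called under the diet, to 72.9 to 99.7 and 96.6 to 119 CPM. Of 6 endothelial markers 1 was called, with sums of 67.0 to 86.4 CPM in NCD and 70.7 to 92.7 CPM in HFD. The macrophage markers summed to 173 to 233 CPM in HFD, to 285 to 368 CPM with C1 and to 232 to 492 CPM with C2, and none of their listed markers lacked reads. The part of these markers in the results below was not tested.

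Levels differed widely among the 34 genes once divided by exon length. In HFD the mean was highest for Fbp1, with 762 CPM per kb of exon, followed by Khk at 379, Gapdh at 340, Pck1 at 211 and Ldha at 204 CPM per kb. It was lowest for Pck2, the mitochondrial PEPCK, at 0.152 CPM per kb, and for the hexokinases of other tissues, Hk1 at 0.253 and Hk2 at 0.302 CPM per kb. In the shallowest library, NCD replicate 2, Hk2 had 5 reads (1.05 CPM) and Pck2 had 6 (1.27 CPM), against the floor of 3, and all 34 passed the filter of a mean of at least 10 counts in each comparison.

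**Figure D1:**
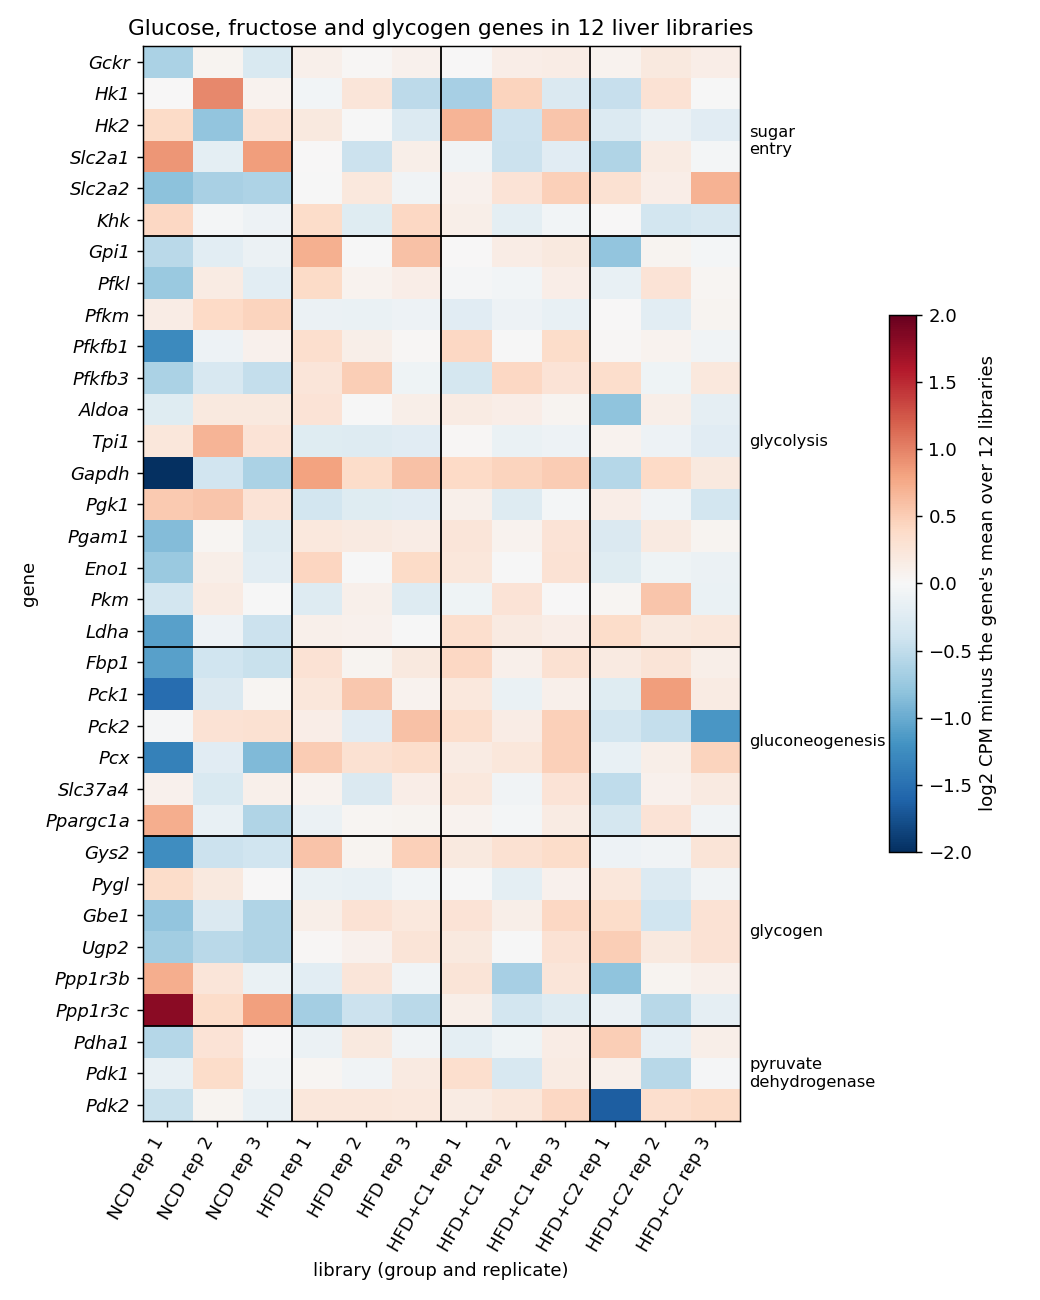
Levels of the 34 genes in the 12 libraries, as log2 CPM minus the mean of the gene over the 12 libraries; genes are grouped by role and libraries by group. NCD replicate 1 stands apart from NCD replicates 2 and 3 in several genes, with Gapdh at 214 CPM against 708 and 597 CPM, and Pdk2 is low in HFD+C2 replicate 1, at 17.9 CPM.

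The diet comparison asked how liver transcripts of chow-fed and high-fat-fed mice differ. Among the 34 genes 23 had a higher and 11 a lower estimate in HFD, with a median log2 change of 0.23 against -0.02 over all genes tested. The groups did not overlap in 18 genes (13 higher and 5 lower), or 52.9%, where 37.1% of all genes tested had groups without overlap. An unadjusted p under 0.05 was found for 14 of the 34 genes, where 28.9% of all genes tested had one. The calls rest on few libraries. With NCD replicate 3 or any 1 of the 3 HFD replicates left out, edgeR called 0 of the 34 genes, with 10 to 12 of them at an unadjusted p under 0.05. With NCD replicate 2 left out it called 6 genes, with Gapdh in the place of Pgk1, and with NCD replicate 1 left out it called 11 genes, among them all 6. Calls over all genes moved as well, from 836 of 13864 in all 6 libraries. They were 1838 of 13412, 1276 of 14352 and 487 of 13722 without NCD replicates 1, 2 and 3. Without HFD replicates 1, 2 and 3 they were 23 of 13900, 131 of 13937 and 25 of 13994. The 6 called genes kept their direction in each of these fits. Their groups did not overlap, so leaving out 1 library could hardly reverse it, and the kept direction is no further support. Of the other fits on all 6 libraries, limma on log2(CPM + 1) called 1 of the 34 genes (Slc2a2) and edgeR with the replicate number as a block called 1 (Ppp1r3c).

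Sugar entry was marked by Slc2a2, which encodes GLUT2, the main glucose transporter of the hepatocyte (chromosome 3, bases 28697903 to 28728361 on GRCm38.p6). Its level was 71.5, 80.5 and 82.1 CPM in NCD replicates 1 to 3 and 127, 146 and 121 CPM in HFD. All 3 HFD libraries lay above all 3 NCD libraries, and so did the 6 libraries with a compound, at 134, 153 and 175 CPM in HFD+C1 and 157, 138 and 206 CPM in HFD+C2. The rise was 1.70-fold (log2 change 0.76, SE 0.17, adjusted p 0.0419), and 0.69 without NCD replicate 1. Slc2a1, the GLUT1 transporter found in most tissues, was at 13.01, 6.11 and 12.5 CPM in NCD and 7.05, 5.25 and 7.62 CPM in HFD. NCD replicate 2 lay inside the HFD range and the other NCD libraries above it (log2 change -0.69, adjusted p 0.171).

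Khk, which phosphorylates fructose in the liver, was at 788, 576 and 551 CPM in NCD, at 761, 498 and 786 CPM in HFD, at 645, 517 and 569.9 CPM in HFD+C1 and at 593, 458 and 473 CPM in HFD+C2. The groups of the diet comparison overlapped, with a log2 change of 0.11 (95% interval -0.45 to 0.67), and 0.28 without NCD replicate 1. Gckr encodes the regulatory protein that holds glucokinase in the nucleus, and was at 51.7, 83.3 and 64.7 CPM in NCD and 86.1, 81.7 and 85.1 CPM in HFD (log2 change 0.36, adjusted p 0.276, and 0.20 without NCD replicate 1). With the compounds Gckr was at 80.3 to 91.7 CPM in all 6 libraries. The ubiquitous hexokinases Hk1 and Hk2 were at 1.05 to 4.43 CPM in all 12 libraries, with overlapping groups.

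In the later steps of glycolysis the estimates had opposite signs. Gapdh, the glyceraldehyde 3-phosphate dehydrogenase often used as a reference gene, was at 214, 708 and 597 CPM in NCD and 1619.6, 1203 and 1389.8 CPM in HFD. The groups did not overlap and the estimate was 2.80-fold higher in HFD (log2 change 1.49, SE 0.40), but the adjusted p was 0.0613. Without NCD replicate 1, which had the lowest level, the log2 change was 1.11 (SE 0.18) with an adjusted p of 0.00124. Of the 6 edgeR fits with 1 library left out, 2 called Gapdh, and the highest adjusted p was 0.234. Gapdh has 205 pseudogene copies at least 90% identical over 300 bases; 188 of them are listed in the tables and held 1.52% as many reads as Gapdh itself, and reads that mapped to several places are outside the gene counts.

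Pgk1, the next enzyme of the pathway (chromosome X, bases 106187100 to 106203699), was at 397, 404 and 334 CPM in NCD and 214, 232 and 235 CPM in HFD. All HFD libraries were below all NCD libraries, and the 6 compound libraries, at 213 to 301 CPM, were too. The level fell by 0.72 on the log2 scale (SE 0.17, adjusted p 0.0477), and by 0.70 without NCD replicate 1. Tpi1, triosephosphate isomerase, had the same order: 340.2, 464 and 351 CPM in NCD and 244, 243 and 247 CPM in HFD (log2 change -0.64, SE 0.19, adjusted p 0.0744). Without NCD replicate 1 the log2 change was -0.73 with an adjusted p of 0.00865. That was the 1 call of Tpi1 among the 6 edgeR fits with 1 library left out, where the highest adjusted p was 0.270.

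Ratios of reads within a library need no scaling between libraries. Gapdh held 0.538, 1.75 and 1.79 times the reads of Pgk1 in NCD and 7.55, 5.18 and 5.92 times in HFD. In HFD+C1 the ratio was 4.10, 5.46 and 4.96, and in HFD+C2 it was 2.08, 4.69 and 5.01. Every high-fat library exceeded every NCD library, the lowest of them being HFD+C2 replicate 1. In HFD, Gapdh was higher and Pgk1 lower than in NCD, both without overlap. The separation of HFD from NCD in this ratio was therefore fixed by those levels and adds no support of its own. The ratio of Pgk1 to Tpi1 stayed between 0.857 and 1.17 in all 12 libraries, with no separation of the groups.

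**Figure D2:**
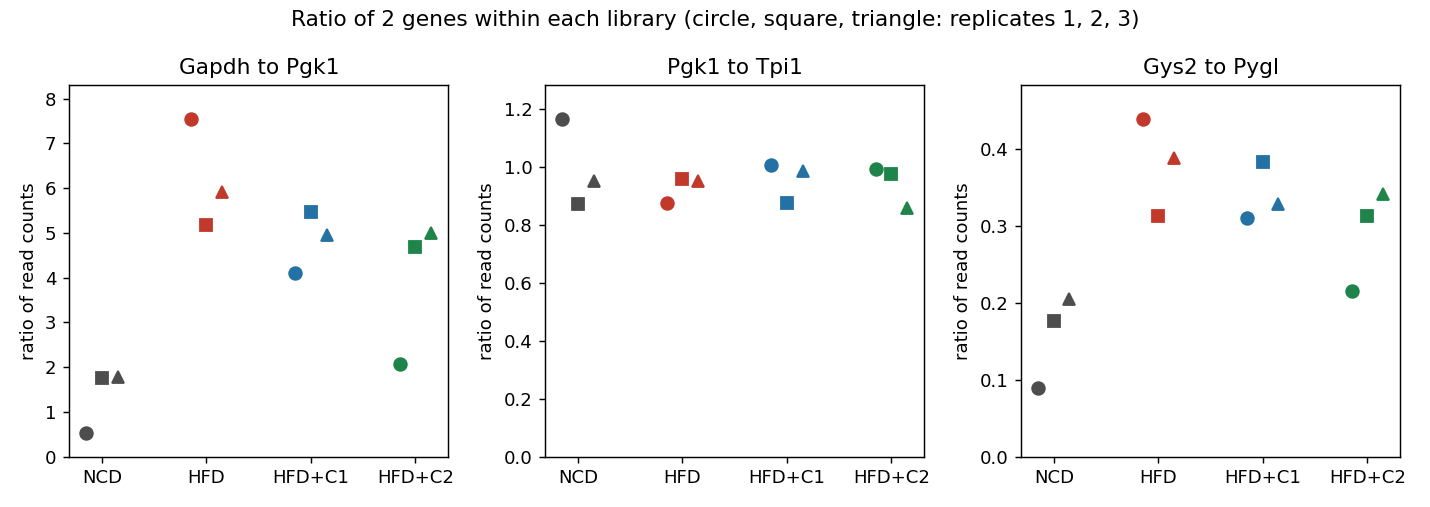
Ratio of the read counts of a pair of genes in each library, by group; circle, square and triangle are replicates 1, 2 and 3. Gapdh to Pgk1 is at most 1.79 in NCD and at least 2.08 in the high-fat libraries, Pgk1 to Tpi1 lies between 0.857 and 1.17 in all groups, and Gys2 to Pygl is at most 0.205 in NCD and at least 0.215 in the high-fat libraries.

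Further genes of glycolysis were not called by edgeR in the fit of all 6 libraries with the filter on low counts. Gpi1, glucose phosphate isomerase, was at 87.0, 109 and 117 CPM in NCD and 208, 125 and 189.9 CPM in HFD (log2 change 0.76, adjusted p 0.0832); 11.5% of its exon bases also belong to a gene on the other strand. DESeq2, limma voom with library weights and edgeR with no filter called Gpi1, and limma voom also called Pfkm. Pfkm, the muscle form of phosphofructokinase, was at 18.1, 21.5 and 22.4 CPM in NCD and 15.1, 14.8 and 15.2 CPM in HFD (log2 change -0.44, adjusted p 0.134). The groups did not overlap in either gene, and the NCD library with the muscle markers, replicate 3, had the highest Pfkm level; without it the log2 change was -0.38. Without NCD replicate 1 it was -0.55 with an adjusted p of 0.0378. That was the 1 call of Pfkm among the 6 edgeR fits with 1 library left out, where the highest adjusted p was 0.356. Pfkfb3, which makes the activator fructose 2,6-bisphosphate, was at 1.87, 2.32 and 2.09 CPM in NCD and 3.46, 4.08 and 2.73 CPM in HFD, again without overlap (log2 change 0.74, SE 0.31, adjusted p 0.159).

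Ldha, lactate dehydrogenase A, was at 305, 605 and 478 CPM in NCD and 691, 689 and 642 CPM in HFD, without overlap (log2 change 0.56, 95% interval -0.03 to 1.14, adjusted p 0.189, and 0.32 without NCD replicate 1). Eno1, enolase, was at 351, 637 and 507 CPM in NCD and 794, 583 and 766 CPM in HFD, with overlap (log2 change 0.53, adjusted p 0.203, and 0.32 without NCD replicate 1). Pkm, the pyruvate kinase of tissues other than liver, was at 12.6, 18.1 and 16.1 CPM in NCD and 13.6, 17.3 and 13.5 CPM in HFD (log2 change -0.05, 95% interval -0.53 to 0.42, and -0.19 without NCD replicate 1). For the others of glycolysis, Pfkl, Pfkfb1, Aldoa and Pgam1, the log2 changes ran from 0.08 in Aldoa to 0.52 in Pgam1, and none was called in that fit. Without NCD replicate 1 they were -0.06 in Aldoa, 0.16 in Pfkfb1, 0.23 in Pfkl and 0.30 in Pgam1. EdgeR with no filter called Pgam1, with an adjusted p of 0.0492. Pseudogene copies at the same identity numbered 17 for Ldha, 9 for Pkm, 7 for Eno1, 5 for Aldoa and 3 for Pgam1, whose listed copies held 10.02% as many reads as the gene.

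In gluconeogenesis the gene that rose was Pcx, which makes oxaloacetate from pyruvate in the mitochondria (chromosome 19, bases 4510472 to 4621752). Its level was 124, 268 and 170.4 CPM in NCD and 449, 389 and 403 CPM in HFD, with every HFD library above every NCD library. The rise was 2.23-fold (log2 change 1.16, SE 0.28, adjusted p 0.0487), and the log2 change was 0.92 without NCD replicate 1. The ratio of Pcx to Pck1 reads within a library, 0.280 to 0.601 in NCD and 0.453 to 0.653 in HFD, overlapped. In the compound groups Pcx was at 354, 369 and 439.6 CPM in HFD+C1 and 285, 343 and 427 CPM in HFD+C2, also above all NCD libraries.

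Fbp1, the liver fructose bisphosphatase, was at 536, 866 and 836 CPM in NCD and 1388, 1189 and 1313 CPM in HFD. All HFD libraries exceeded all NCD libraries, and the estimate of 1.75-fold (log2 change 0.81, SE 0.23) had an adjusted p of 0.0689, which was 0.0199 for a log2 change of 0.61 without NCD replicate 1. Of the 6 edgeR fits with 1 library left out, 1 called Fbp1, and the highest adjusted p was 0.257. Pck1, the cytosolic PEPCK and a classic target of glucagon and insulin, was at 206, 483 and 609 CPM in NCD and 687, 858 and 622 CPM in HFD. HFD replicate 3 was only just above NCD replicate 3. The log2 change of 0.75 (95% interval -0.07 to 1.57) was not called in edgeR with the filter on low counts, with an adjusted p of 0.203. The log2 change was 0.40 without NCD replicate 1. EdgeR with no filter called Pck1, with an adjusted p of 0.0216.

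The remaining genes of gluconeogenesis had overlapping groups. Slc37a4, which carries glucose 6-phosphate into the endoplasmic reticulum, had group means of 74.8 ± 11.3 CPM in NCD and 75.3 ± 11.3 CPM in HFD (SD, n = 3). Ppargc1a, the coactivator PGC-1 alpha, was at 3.08 to 7.74 CPM in NCD and 4.29 to 4.85 CPM in HFD. Its log2 change was -0.10 (95% interval -0.90 to 0.71), and 0.43 without NCD replicate 1. Pck2 was at 1.02 to 1.27 CPM in NCD and 0.886 to 1.55 CPM in HFD, where the log2 change of 0.02 had a 95% interval from -1.05 to 1.09.

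**Figure D3:**
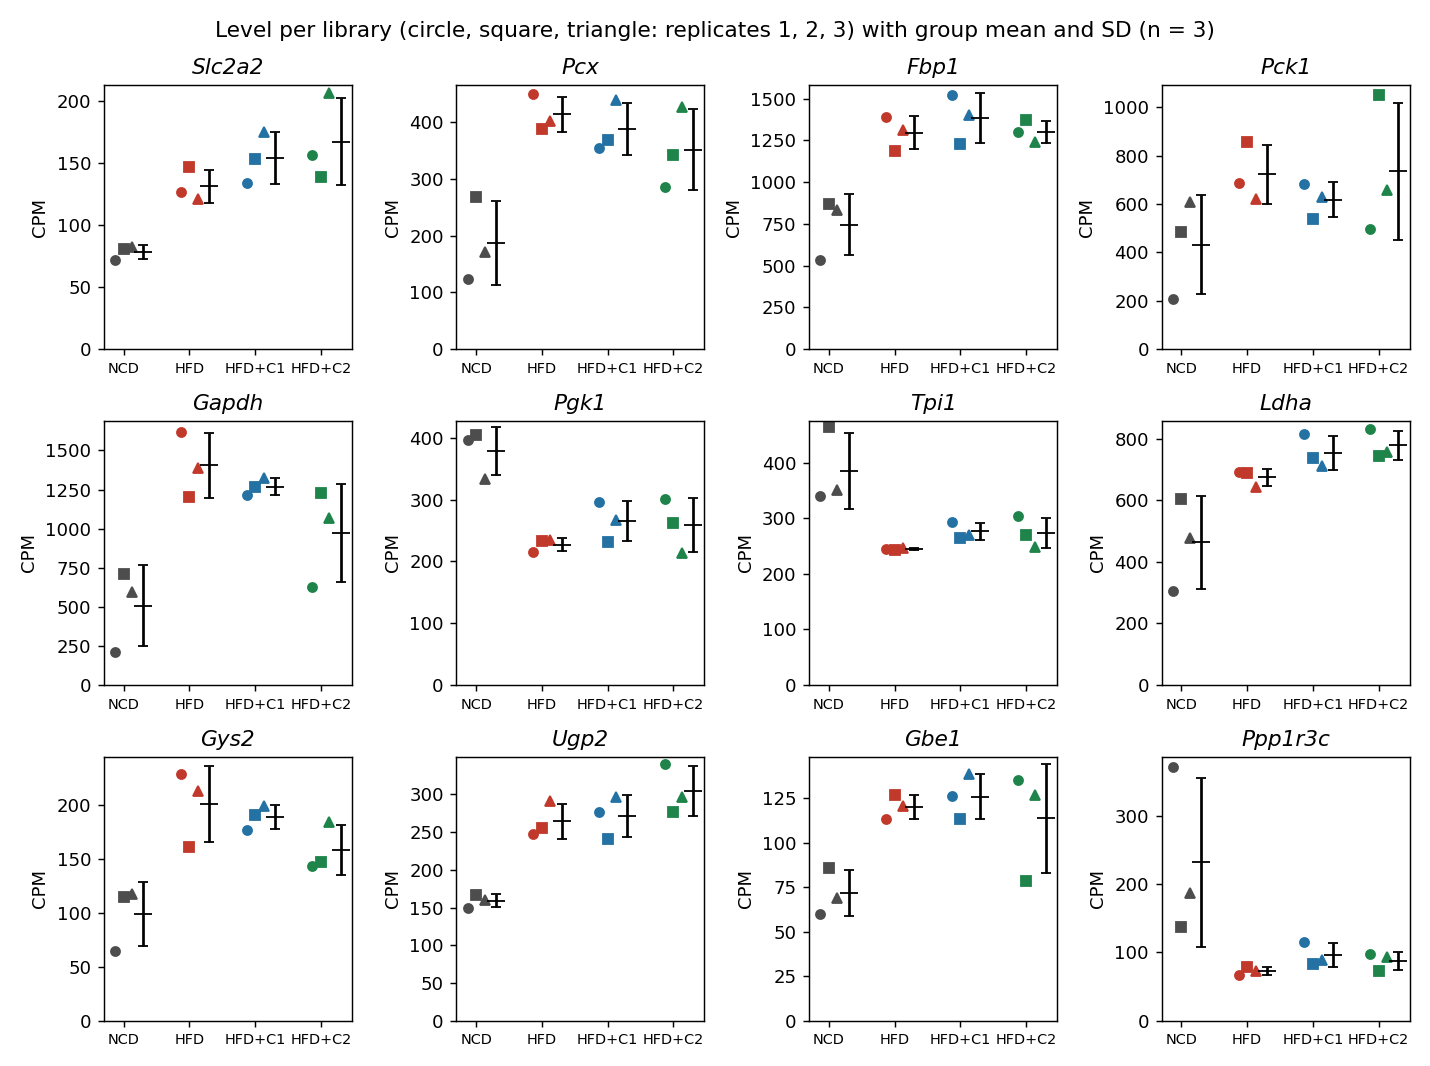
Level in CPM of 12 of the genes in each library, by group; circle, square and triangle are replicates 1, 2 and 3, and the black bar is the group mean with its SD (n = 3). Slc2a2, Pcx, Gys2, Ugp2, Fbp1 and Ldha are higher in all 9 high-fat libraries than in any NCD library, and Pgk1, Tpi1 and Ppp1r3c are lower.

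Glycogen turnover held 3 of the 6 calls among its 6 genes, and 5 of the 6 had groups without overlap, where 6.03% of all genes tested were called and 37.1% had no overlap. Ppp1r3c, whose product targets protein phosphatase 1 to glycogen and promotes its synthesis, fell (chromosome 19, bases 36731731 to 36736604). It was at 371, 137 and 187 CPM in NCD and 66.5, 79.2 and 73.2 CPM in HFD, with NCD replicate 1 the highest of all. No HFD library reached the NCD range, and HFD was 3.15-fold lower (log2 change -1.66, SE 0.34, adjusted p 0.0385). Without NCD replicate 1 the log2 change was -1.16 (SE 0.17, adjusted p 0.000557). The 6 compound libraries, at 72.4 to 116 CPM, were all below the NCD libraries as well.

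Ppp1r3b, the other glycogen-targeting subunit of the phosphatase in the list and the main one of liver, was at 275, 196 and 151 CPM in NCD and 142, 196 and 158 CPM in HFD. Its groups overlapped (log2 change -0.31, 95% interval -0.88 to 0.26, and -0.06 without NCD replicate 1). Ppp1r3b held 0.740, 1.43 and 0.805 times the reads of Ppp1r3c in NCD and 2.14, 2.47 and 2.16 times in HFD. With the compounds the ratio ran from 0.975 to 2.36, and HFD+C1 replicate 2, at 1.27, and HFD+C2 replicate 1, at 0.975, lay inside the NCD range. The test of the difference between these subunits was not run.

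Ugp2 makes UDP-glucose, the donor of glucose for glycogen (chromosome 11, bases 21321126 to 21371267). It was at 149.8, 167 and 159.9 CPM in NCD and 247, 256 and 291 CPM in HFD, a 1.68-fold rise without overlap (log2 change 0.75, SE 0.17, adjusted p 0.0440). The compound libraries were at 241 to 340.3 CPM. Gbe1, the branching enzyme (chromosome 16, bases 70313949 to 70569720), was at 60.2, 85.6 and 68.8 CPM in NCD and 113, 127 and 121 CPM in HFD. It rose 1.70-fold without overlap (log2 change 0.76, SE 0.19, adjusted p 0.0494). With the compounds Gbe1 was at 113 to 138 CPM in 5 of 6 libraries and at 78.7 CPM, inside the NCD range, in HFD+C2 replicate 2. Without NCD replicate 1 the log2 changes were 0.70 for Ugp2 and 0.65 for Gbe1.

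Gys2, the liver glycogen synthase, was at 65.2, 115 and 117 CPM in NCD and 229, 161 and 213 CPM in HFD. The groups did not overlap, and the estimate of 2.05-fold (log2 change 1.04, SE 0.26) had an adjusted p of 0.0538, which was 0.00965 for a log2 change of 0.79 without NCD replicate 1. Of the 6 edgeR fits with 1 library left out, 1 called Gys2, and the highest adjusted p was 0.230. Pygl, the liver glycogen phosphorylase, was at 733, 652 and 572 CPM in NCD and 520.3, 515 and 551 CPM in HFD, lower without overlap but with a small estimate (log2 change -0.29, 95% interval -0.70 to 0.12). The ratio of Gys2 to Pygl reads within a library was 0.0890, 0.176 and 0.205 in NCD and 0.439, 0.313 and 0.388 in HFD. With C1 it was 0.311, 0.384 and 0.328 and with C2 0.215, 0.313 and 0.341, so that every high-fat library exceeded every NCD library, HFD+C2 replicate 1 by little. As Gys2 was higher and Pygl lower without overlap, the separation of HFD from NCD in this ratio follows from those levels.

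At pyruvate dehydrogenase, which commits pyruvate to acetyl-CoA, none of the 3 genes was called by edgeR, DESeq2 or limma. In edgeR 0 had an unadjusted p under 0.05, with Pdk2 at 0.0507. Pdk2, a kinase that switches the complex off, was at 41.4, 58.2 and 50.9 CPM in NCD and 66.0, 65.6 and 65.5 CPM in HFD, without overlap (log2 change 0.41, 95% interval -0.00 to 0.81). Pdha1, the catalytic subunit, and Pdk1, another of the kinases, had log2 changes of 0.08 and 0.01, which were -0.12 and -0.09 without NCD replicate 1. Of the Pdha1 exon bases 16.2% are shared with Map3k15 on the other strand, and the use of strand in counting is not given in the sources used here.

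Over all 9 high-fat libraries, 10 of the 34 genes lay outside the NCD range in each of them. Fbp1, Ldha, Pcx, Slc2a2, Gys2 and Ugp2 were higher in all 9, and Pfkm, Tpi1, Pgk1 and Ppp1r3c were lower in all 9. Of all genes tested for the diet, 18.5% had their 9 high-fat libraries outside the NCD range, 8.56% above it and 9.95% below it.

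Other genes of the pathways, from lists of 120 names that leave out the 34, gave 6 calls among the 112 tested under the diet, 2 higher and 4 lower. Over all lists that is 5.36%, near the 6.03% of all genes tested, and an unadjusted p under 0.05 was found for 29.5% against 28.9% of all genes. None was called among 23 other genes of glycolysis and gluconeogenesis, 20 of glycogen turnover or 18 of fructose, galactose, polyol and pentose phosphate metabolism, where edgeR gave an unadjusted p under 0.05 for 8, 3 and 3. Among 12 genes of pyruvate entry to mitochondria, 4 had an unadjusted p under 0.05 and 1 was called: Pdk4, the pyruvate dehydrogenase kinase induced by fasting, was at 38.2, 23.6 and 31.1 CPM in NCD and 8.94, 6.52 and 9.94 CPM in HFD. It fell by 1.86 on the log2 scale (SE 0.25, adjusted p 0.00994), without overlap. In the same list Mpc1, a subunit of the carrier that brings pyruvate into mitochondria, was at 1.11, 10.3 and 10.5 CPM in NCD and 45.4, 33.9 and 33 CPM in HFD, without overlap, and had a log2 change of 2.39 without a call (adjusted p 0.0532).

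Of 19 regulators of glucose genes 5 had an unadjusted p under 0.05, where 28.9% of all genes had one, and 2 were called, both lower in HFD. The median log2 change of the list was 0.00. Irs2, the insulin receptor substrate that insulin represses in liver, was at 20.7, 11.4 and 14.7 CPM in NCD and 3.66, 3.30 and 2.16 CPM in HFD (log2 change -2.36, SE 0.30, adjusted p 0.00893). Mlxipl, which encodes the carbohydrate-response factor ChREBP, was at 119.6, 91.9 and 90.9 CPM in NCD and 58.2, 59.2 and 60.4 CPM in HFD (log2 change -0.75, SE 0.18, adjusted p 0.0460). The groups did not overlap in either.

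Of 10 other fasting-responsive liver genes 2 were called, both higher, 8 had an unadjusted p under 0.05 where 28.9% of all genes had one, and 8 had a higher estimate. Their median log2 change was 0.70 against -0.02 over all genes. One of them, Cpt1a, which brings long fatty acids into mitochondria, was at 27.0, 87.1 and 81.6 CPM in NCD and 229, 254 and 211 CPM in HFD (log2 change 1.84, SE 0.39, adjusted p 0.0399). The groups did not overlap in Cpt1a, and NCD replicate 1 was its lowest library. Pdk4, also induced by fasting, and Irs2, repressed by insulin, stood in other lists and were called lower, so the list does not speak for all such genes. Of 10 other hypoxia-responsive genes 2 had an unadjusted p under 0.05, a share below the 28.9% of all genes, the median log2 change was -0.29, and 1 was called: Ndrg1 was at 15.4, 13.1 and 24.2 CPM in NCD and 7.58, 6.20 and 7.57 CPM in HFD (log2 change -1.31, SE 0.26, adjusted p 0.0344). Without HFD replicate 1 or HFD replicate 3 edgeR called 0 of the companions, with 20 and 22 at an unadjusted p under 0.05.

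The compound comparisons asked whether C1 or C2 changed these transcripts in high-fat-fed mice. Both were made against the same 3 HFD libraries, so they share their reference and are given side by side. C1 gave 0 calls among the 34 genes in edgeR, where 0.0524% of 13358 genes tested were called. DESeq2 and both limma fits also called 0 of the 34, and 1 gene had an unadjusted p under 0.05 in edgeR, where 7.75% of all genes had one. The median log2 change of the 34 was 0.02, against 0.01 over all genes. The 95% interval lay within 1 log2 unit of no change for 33 of the 34 genes, and within 0.5 for 23.

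C2 likewise gave 0 calls in edgeR, DESeq2 and both limma fits, where edgeR called 0.0222% of 13503 genes. In edgeR 2 of the 34 genes had an unadjusted p under 0.05, where 6.89% of all genes had one. The median log2 change was -0.06, against 0.02 over all genes. Here the 95% interval lay within 1 log2 unit for 30 of the 34 genes and within 0.5 for 4.

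**Figure D4:**
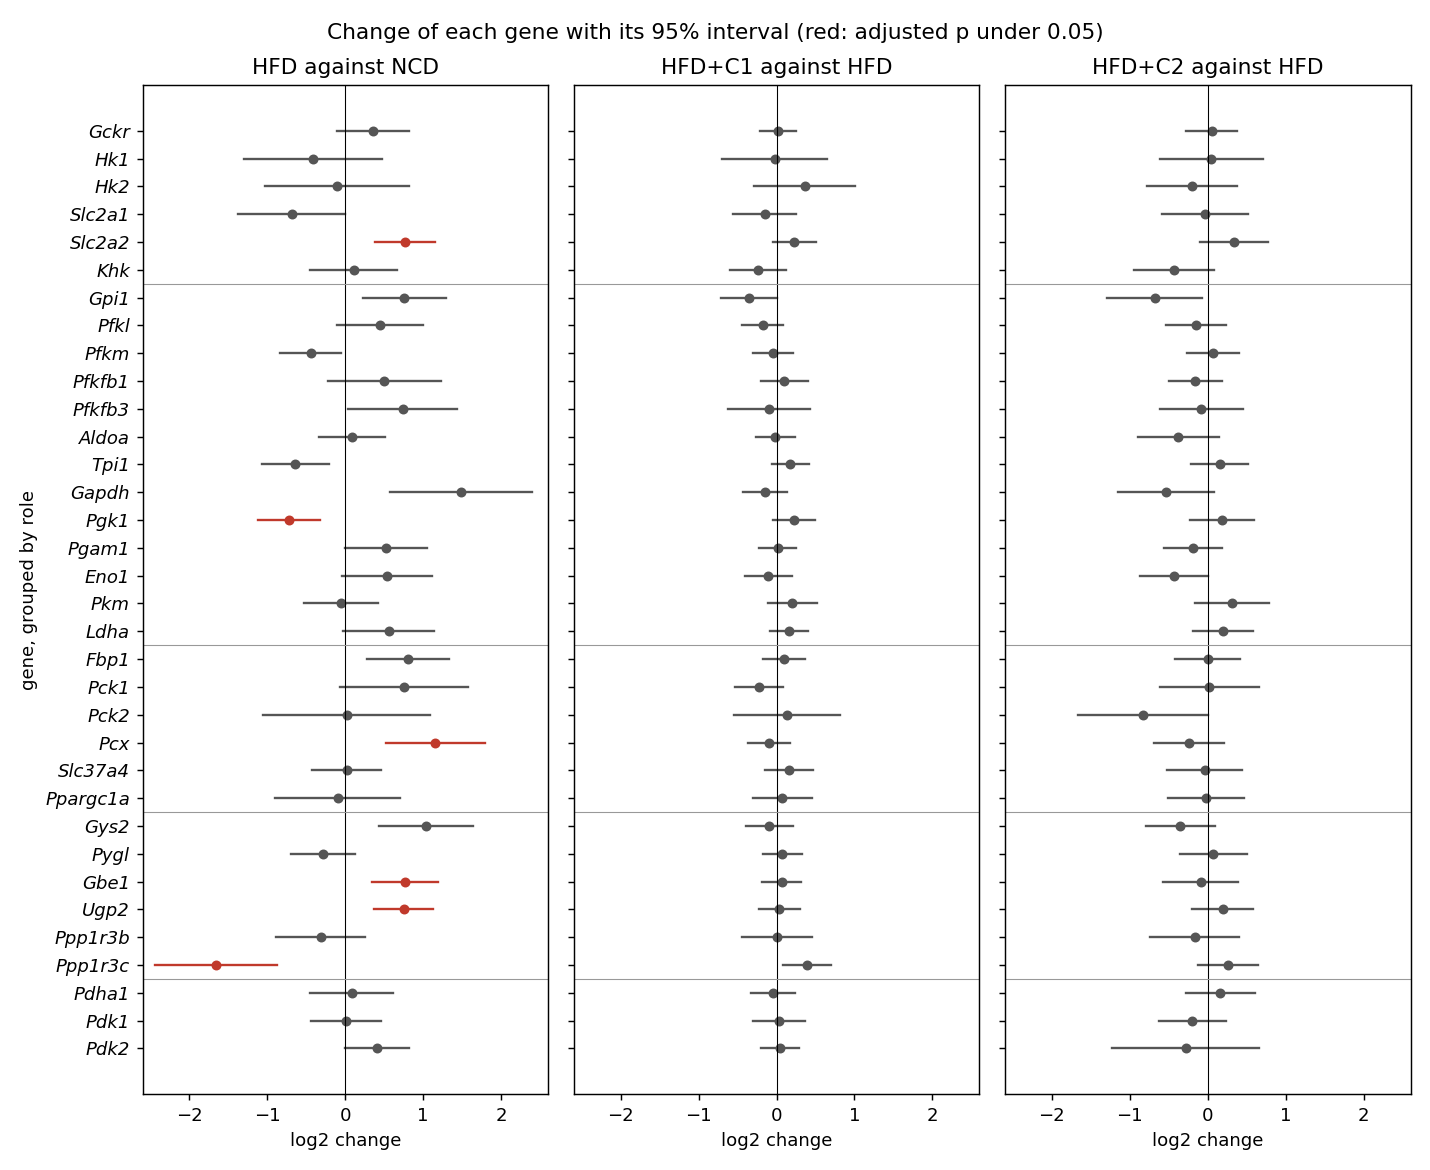
Log2 change of each of the 34 genes (point) with its 95% interval (line) from edgeR, with the diet in the left panel, C1 in the middle and C2 on the right, each compound set against HFD; genes are grouped by role and red marks an adjusted p under 0.05. The 6 red genes are all in the diet panel, and the intervals are narrowest for C1.

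The gene with the lowest p under C1 was Ppp1r3c. It was at 66.5, 79.2 and 73.2 CPM in HFD and 116, 82.5 and 88.9 CPM in HFD+C1, where all 3 libraries lay above those of HFD. The log2 change of 0.39 (SE 0.14, 95% interval 0.09 to 0.70) had an adjusted p of 0.484. In HFD+C2 it was at 97.5, 72.4 and 93.4 CPM, which overlapped HFD (log2 change 0.26, 95% interval -0.13 to 0.64).

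The groups of HFD+C1 and HFD did not overlap in 3 of the 34 genes, Tpi1, Ldha and Ppp1r3c, where 12.3% of all genes tested had no overlap. Tpi1 was at 294, 265 and 271 CPM in HFD+C1 and Ldha at 816, 737 and 710.4 CPM, both above HFD, with log2 changes of 0.18 and 0.16. Under C2, where 13.6% of all genes had no overlap, 4 of the 34 had none. Tpi1 at 303, 269 and 248 CPM and Ldha at 832, 745 and 758 CPM were again above HFD, with log2 changes of 0.15 and 0.20 (0.08 for Tpi1 without HFD+C2 replicate 1), and Eno1 and Pck2 were below. None of these differences had an adjusted p under 0.05.

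Under C2 the unadjusted p was under 0.05 for Gpi1 and Eno1. Gpi1 was at 208, 125 and 189.9 CPM in HFD and 73.2, 131 and 124 CPM in HFD+C2, with overlap (log2 change -0.68, SE 0.27, adjusted p 0.695). Its log2 change was -0.46 without HFD+C2 replicate 1. Under C1 it was at 127, 139 and 145 CPM (log2 change -0.35, adjusted p 0.651). With HFD replicate 2 left out, Gpi1 was the 1 gene of the 34 that edgeR called under C1, with a log2 change of -0.54 and an adjusted p of 0.0413. Eno1 was at 794, 583 and 766 CPM in HFD and 497, 553 and 546 CPM in HFD+C2, without overlap (log2 change -0.43, SE 0.19, adjusted p 0.695). In HFD+C1 it was at 693, 585 and 719 CPM.

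HFD+C2 replicate 1 was the lowest library of its group in several genes. Pdk2 was at 17.9, 71.3 and 73.2 CPM in HFD+C2 and 62.7, 65.9 and 75.2 CPM in HFD+C1, against 65.5 to 66.0 CPM in HFD. Its log2 change under C2 was -0.29, and 0.13 without HFD+C2 replicate 1. Gapdh was at 626, 1229 and 1065 CPM in HFD+C2 and 1217, 1263 and 1325 CPM in HFD+C1. The log2 change of Gapdh under C2 was -0.54, and -0.30 without that replicate. Under C1 it was -0.15 (95% interval -0.43 to 0.13).

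The genes called under the diet had these estimates with the compounds. Slc2a2 had log2 changes of 0.23 under C1 (95% interval -0.05 to 0.51) and 0.34 under C2 (-0.09 to 0.77). Pcx had -0.10 (-0.36 to 0.17) and -0.24 (-0.69 to 0.20). For Pgk1 they were 0.22 (-0.04 to 0.49) and 0.18 (-0.23 to 0.59). Each interval of these 3 genes included no change. Without HFD+C2 replicate 1 the values under C2 were 0.38 for Slc2a2, -0.11 for Pcx and 0.06 for Pgk1. The same held for Ugp2, at 0.04 under C1 and 0.19 under C2, and for Gbe1, at 0.07 and -0.09, where C2 without that replicate gave 0.11 and -0.23. With 1 library left out at a time the value of Gbe1 under C2 ran from -0.23 to 0.11. Ppp1r3c, given above, had an interval above no change under C1 before adjustment over the genes tested.

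Among the genes of fasting, glycogen and fructose, Pck1 was at 684, 539.6 and 629.8 CPM in HFD+C1 and at 499, 1050.2 and 659 CPM in HFD+C2. Its log2 changes were -0.23 under C1 and 0.02 under C2 (95% interval -0.61 to 0.66), and the latter was 0.24 without HFD+C2 replicate 1. With 1 library left out at a time the value under C2 ran from -0.33 to 0.24. Gys2 was at 177, 191 and 199 CPM in HFD+C1 and 143, 147 and 185 CPM in HFD+C2, with log2 changes of -0.09 and -0.35. Khk had log2 changes of -0.24 under C1 and -0.44 under C2, and Fbp1 0.09 and -0.00, all with overlapping groups. Pygl, at 569.5, 497 and 607 CPM in HFD+C1 and 665, 471 and 542 CPM in HFD+C2, had 0.08 and 0.07, the latter -0.07 without that replicate. Pkm was at 15.3, 19.6 and 16.3 CPM in HFD+C1 and 16.6, 23.8 and 14.7 CPM in HFD+C2, with 0.20 and 0.31. With 1 library left out at a time these ran from 0.09 to 0.33 under C1 and from 0.07 to 0.45 under C2. None of the 111 companion genes tested was called in edgeR for C1 or C2, with 15 and 7 at an unadjusted p under 0.05, or 13.5% where all genes gave 7.75% and 6.31% where all genes gave 6.89%.

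C1 and C2 were also compared with each other at their shared dose and time. EdgeR called 0 of the 34 genes and 0 of the 13229 genes tested, DESeq2 and both limma fits called 0 of the 34, and 1 of the 34 had an unadjusted p under 0.05, where 4.6% of all genes had one. That gene was Pck2, at 1.33, 1.14 and 1.44 CPM in HFD+C1 and 0.801, 0.744 and 0.461 CPM in HFD+C2, without overlap. The log2 difference of C2 from C1 was -0.96 (SE 0.35, 95% interval -1.74 to -0.17) with an adjusted p of 0.841, at levels of few reads. In HFD it was at 1.13, 0.886 and 1.55 CPM, and the log2 change under C2 was -0.83 (95% interval -1.67 to 0.00). Eno1 also had no overlap between the compounds, lower with C2 (log2 difference -0.32, 95% interval -0.71 to 0.07), and 12% of all genes tested had none. For 31 of the 34 genes the interval of the difference lay within 1 log2 unit of none, and for 8 within 0.5.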

How the data were processed

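The authors deposited 3 tables of read counts per gene, 1 for each pairing of groups. Their names say normalized, but all values were whole numbers and column totals differed as raw counts do, and the HFD columns were identical in all 3 tables, so the counts were used as deposited. Trimmomatic 0.39, STAR 2.7, DESeq2 and the build mm10 are named, without roles, per the submitters' processing notes; the annotation, the counting program and the use of strand are not given in the sources used here. The 4 lines that name no gene (unmapped, multi-mapping, no feature, ambiguous) held 27.3% to 58.2% of a library's reads and were left out of library sizes and tests.

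Each comparison was fitted on its own 6 libraries in edgeR 4.0.16 under R 4.3.3 (glmQLFit and glmQLFTest): TMM scaling, a filter at a mean of 10 counts, Benjamini-Hochberg adjustment over all genes tested, and a call at an adjusted p under 0.05. Printed CPM are scaled by TMM over all 12 libraries, log2 changes and 95% intervals come from the fit, and SE is the estimate divided by the root of its F statistic. The comparisons were HFD against NCD, each compound against HFD, and HFD+C2 against HFD+C1. Alternatives were median-ratio and upper-quartile scaling, DESeq2 1.42.0, limma 3.58.1 on log2(CPM + 1), limma voom with library weights, no filter, a mean of at least 50 counts, all 12 libraries in 1 fit, a replicate block, and leaving out each library. On simulated counts with 100 genes changed at each size, the diet fit recovered 21% of changes of 1 log2 unit and 81% of changes of 2, over 13864 genes. The C1 fit recovered 76% and 93% over 13358 genes, the C2 fit 42% and 95% over 13503, and the fit of C2 against C1 38% and 90% over 13229.

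The genes and lists were chosen with earlier results of these data known. Values in every NCD and HFD library are given for those of the 34 genes that were called. They are also given for genes without overlap and an unadjusted p under 0.05, with only a range in NCD for Pck2. Chosen landmarks have them too (Slc2a2, Gckr, Khk, Fbp1, Pck1, Gys2, Pygl, Gapdh, Pkm, Ldha). In the compound libraries some of these genes have every value, some a range and some none. Pdk2, Ppp1r3b and Slc2a1, and the companion Mpc1, were added after their values were seen. Of the companions, values are given for called genes. Exon lengths and overlaps came from GENCODE M21 (GRCm38), coordinates and start-site windows from RefSeq GRCm38.p6. The labels do not say whether replicate numbers pair the libraries. Correlations of the deviations of same-numbered libraries ran from -0.243 to 0.429. Differently numbered libraries were not compared, so these values cannot decide it, and pairing was not tested. The values of 1 called companion gene are not reported here.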

Additional observations from a re-analysis of the deposited data

Results flagged for a closer look

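Some shares of reads that the tables list outside genes exceeded the level in the control libraries of their comparison. The share of reads that mapped to several places was 7.34%, 7.50% and 7.28% in HFD replicates 1 to 3, where the highest NCD library had 6.28%. In HFD+C2 replicate 1 the ambiguous share was 9.04%, where the highest HFD library had 4.96%. The share without an annotated feature was 10.9% there against at most 6.84% in HFD, and the unmapped share was 21.9% against at most 16.6%. These 3 shares were high in this library alone of its group: HFD+C2 replicates 2 and 3 had 3.92% and 3.99% ambiguous, 4.86% and 4.66% without a feature, and 11.4% and 12.2% unmapped. NCD replicate 1, a chow library, had 7.88% ambiguous, 23.2% without a feature and 21.5% unmapped. HFD+C2 replicate 1 had the Pdk2 level of 17.9 CPM and the lowest Gapdh level of the high-fat libraries.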

How the results depend on the processing

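The number of the 34 genes called under the diet, 6 in the report, was 11 with DESeq2, 1 with limma on log2(CPM + 1) (Slc2a2), 12 with library weights, 11 with no filter and 10 with all 12 libraries in 1 fit. Both other scalings and the stricter filter gave 5 or 6. With the replicate number as a block it was 1 (Ppp1r3c), with 483 genes called in all against 836. Whether the numbers pair the libraries was not tested. Companion genes called, 6 in the report, were 23 with DESeq2, 34 with weights, 30 with no filter and 20 in the 12-library fit. All genes called were 2298, 361, 3211, 4493, 524 and 1996 with DESeq2, limma, weights, no filter, the stricter filter and the 12-library fit. The genes tested were 13864 with DESeq2, limma and weights, 35374 with no filter, 10057 with the stricter filter and 13466 in the 12-library fit. The median change of the 34 was 0.41 with no filter against 0.23.

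For C1 all genes called, 7 in the report, were 77 with DESeq2, 50 with weights, 206 with no filter, 0 in the 12-library fit and 36 with the block. For C2, 3 in the report, they were 35 with DESeq2, 54 with weights, 152 with no filter and 0 in the 12-library fit; 1 companion was called with weights and 1 with no filter. For C2 against C1 they were 3 with DESeq2 and 162 with no filter against 0. None of the 34 was called for a compound in these settings. The cause was not tested.

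Leaving out 1 library at a time gave 0 to 11 of the 34 called under the diet, 0 to 25 companions, 23 to 1838 genes in all, and a median of 0.22 to 0.43. For C1 it gave 0 to 1, 2 to 102 genes in all, and a median of -0.00 to 0.08. For C2 it gave 0, with 0 to 1 companions, 0 to 27 genes and a median of -0.17 to -0.01, and for C2 against C1 0 to 1 genes and -0.17 to -0.04. None of the 6 called genes changed direction in any setting, which groups without overlap made nearly certain when 1 library was left out. Under the diet 34 of 507 values of the 34 genes changed sign, all in uncalled genes. Depth limits the low genes: in NCD replicate 2 Hk2 had 5 reads and Pck2 had 6.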
